A study of Mus musculus with 7 samples.

Results

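The H3K27me3 peaks and the H3K4me3 peaks of postnatal day 12 (P12) mouse spermatocytes were compared by position. Members were all peaks of the 2 deposited P12 lists, 13028 for H3K27me3 and 44142 for H3K4me3, or 57170 of the 137861 peaks in the 5 lists of the series. A peak counted as shared when it overlapped a peak of the other mark by at least 1 bp, and as single-mark otherwise. Both lists came from wild-type CD1 animals and from 1 library each. The cells were released from testes with trypsin and collagenase, fractionated on percoll and fixed with formaldehyde before chromatin immunoprecipitation and sequencing. H3K27me3, H3K4me3 and EED lists from the same strain and genotype at postnatal day 17 (P17) were used as further readouts; the P17 histone-mark lists each pooled 2 replicates and the EED list came from 1. A percoll fraction can hold other cell types of the testis. Peak lists hold no expression values, so the labelled cell type could not be checked against its markers here.

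H3K27me3 is the repressive histone mark written by Polycomb repressive complex 2 (PRC2), of which EED is a core subunit that also binds the mark. H3K4me3 marks promoters, above all those rich in CpG, and is written by the SET1 and MLL complexes. Regions that carry both marks are known as bivalent and were first described at developmental regulator genes in embryonic stem cells; they also occur in germ cells. An overlap of called peaks in a cell population does not separate 1 allele with both marks from a mixture of cells with either mark.

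With 1 library per mark there was no replicate spread to test against, so no p-value was computed. Wilson 95% intervals are given for shares; they treat called peaks as independent and cover counting error only. The range over the 19 autosomes is given beside the main values as a description of how they varied within these 2 libraries. The lists carry no read depth, height or score, so the depth behind a peak is unknown. Peak numbers ran without gaps in the H3K4me3 list, whereas 13.1% of the numbers were missing from the H3K27me3 list (9.47% to 18.9% by autosome). A region without an H3K27me3 peak can therefore be one whose peak was removed before deposit. Numbers were also missing from the P17 EED list, and a small share from the P17 H3K4me3 list. The same limit therefore holds for a region without a peak in those lists. Positions are mm9 and counted from 1, and no gene names are given, since no annotation of that build was used here.

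Most H3K27me3 peaks lay on H3K4me3, and most H3K4me3 peaks lay away from H3K27me3. Of all H3K27me3 peaks, 63.1% overlapped H3K4me3 (8227 of 13028; Wilson 95% interval 62.3% to 64.0%). Of all H3K4me3 peaks, 17.0% overlapped H3K27me3 (7521 of 44142; 16.7% to 17.4%). The H3K27me3 share ran from 50.4% on chromosome 8 to 75% on chromosome 10, with a median of 63.4% over autosomes. The H3K4me3 share ran from 13.0% on chromosome 16 to 21.2% on chromosome 11, with a median of 17.2%. The autosome ranges of the H3K27me3 and H3K4me3 shares did not overlap. This order is largely built in, since each autosome had similar numbers of shared peaks in both lists but far more H3K4me3 peaks. The lists also differed in size: H3K27me3 peaks covered 21.6 Mb, or 0.838% of the span between the outermost peaks of each chromosome, and H3K4me3 peaks covered 74.6 Mb, or 2.90% of it.

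By bases, 12.6 Mb lay under both marks. That was 58.3% of the H3K27me3 bases and 16.9% of the H3K4me3 bases. Another 9.0 Mb lay under H3K27me3 alone and 62.0 Mb under H3K4me3 alone. The shared H3K27me3 peaks held 80.7% of all H3K27me3 bases, more than their 63.1% of peaks.

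Shared peaks were wider than single-mark peaks for both marks. H3K27me3 peaks with H3K4me3 had a median width of 1542 bp (10th to 90th percentile 653 to 4024 bp), against 750 bp (500 to 1401 bp) for those without. For H3K4me3, peaks with H3K27me3 had a median width of 1923 bp (1161 to 3434 bp), against 1400 bp (892 to 2543 bp) for those without. Both orders held on 19 of 19 autosomes. The H3K27me3 medians spanned 1377 to 1720 bp by autosome with H3K4me3 and 676 to 860 bp without it. The H3K4me3 medians spanned 1771 to 2058 bp with H3K27me3 and 1308 to 1530 bp without it. In neither mark did the autosome medians of the classes overlap. At 5 kb or wider there were 518 shared H3K27me3 peaks against 1 single-mark peak, and 166 shared H3K4me3 peaks against 100 single-mark peaks.

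**Figure D1:**
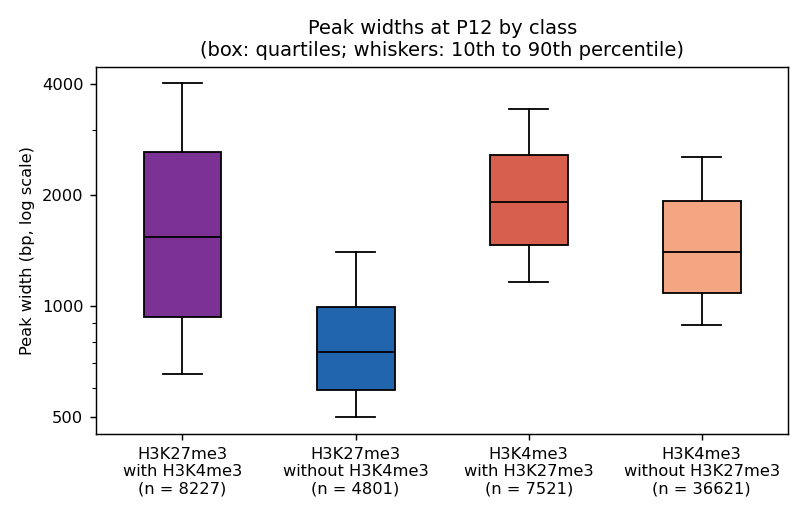
Peak widths in bp on a log axis for the 4 classes at P12, with boxes for quartiles, lines for medians and whiskers for the 10th and 90th percentiles. H3K27me3 peaks without H3K4me3 were the narrowest class, with a median of 750 bp.

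A wider peak has more room to touch another, and the share of peaks with the other mark was therefore also taken within 10 classes of equal size by width. Among the narrowest H3K27me3 peaks, 187 to 556 bp wide, 31.4% overlapped H3K4me3 (29.0% to 34.0%). Among the widest, 3316 to 43007 bp, 98.8% did (98.1% to 99.3%), which left 15 of 1303 without H3K4me3. The H3K4me3 list showed the same order on a lower level: 4.57% of its narrowest class (352 to 915 bp; 3.99% to 5.23%) and 36.4% of its widest (2703 to 10808 bp; 35.0% to 37.8%) overlapped H3K27me3. Each successive class had a higher share in both lists. How much of this slope comes from width alone was not tested.

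**Figure D2:**
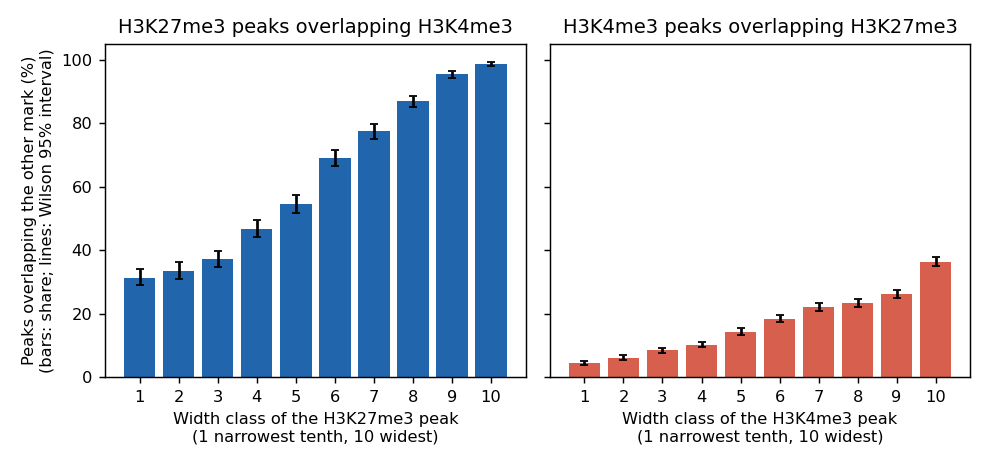
Share of P12 peaks that overlap the other mark by at least 1 bp, in 10 classes of equal size by the peak's own width, H3K27me3 on the left and H3K4me3 on the right, with Wilson 95% intervals. The share rises to 98.8% in the widest H3K27me3 class and to 36.4% in the widest H3K4me3 class.

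Neither mark was regularly contained in the other. The 8227 and 7521 shared peaks formed 8755 overlapping pairs. In 30.3% of pairs the H3K27me3 peak lay wholly inside the H3K4me3 peak (29.3% to 31.2%), and in 26.4% the H3K4me3 peak lay wholly inside the H3K27me3 peak (25.5% to 27.3%). The other 43.3% were staggered, with H3K27me3 reaching out to the left in 1923 pairs and to the right in 1870. No pair had identical edges. Which nesting was more frequent depended on how peaks were split: counted per shared peak, 32.2% of H3K27me3 peaks lay inside 1 H3K4me3 peak and 30.7% of H3K4me3 peaks inside 1 H3K27me3 peak, while with peaks of a mark within 1 kb merged the values were 29.6% and 38.2%.

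The arrangement followed the width of the H3K27me3 peak. Where H3K27me3 lay inside, its median width was 968 bp and that of its H3K4me3 partner 2175 bp. Where it was the outer peak, the medians were 3657 bp for H3K27me3 and 1908 bp for H3K4me3. In pairs of the narrowest H3K27me3 class 67.2% had H3K27me3 inside and 0% had H3K4me3 inside; in pairs of the widest class the values were 1.60% and 75.8%. Staggered pairs were most frequent between these extremes, at 61.6% in the seventh class (1342 to 1731 bp). The H3K4me3 partner differed less across the same classes, with a median width of 1546 bp beside the narrowest H3K27me3 peaks and 2440 bp beside the widest. The width order between the marks itself largely fixes which peak can contain the other.

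Shared regions mostly held 1 peak of each mark. Joining all overlapping peaks gave 6993 regions, of which 5606, or 80.2%, were made of 1 H3K27me3 and 1 H3K4me3 peak. Another 1005 (14.4%) had several H3K27me3 peaks on 1 H3K4me3 peak, and 273 (3.90%) had 1 H3K27me3 peak over several H3K4me3 peaks. The last 109 (1.56%) held several of each. Regions of 1 and 1 had a median length of 2306 bp, while those with 1 H3K27me3 peak over several H3K4me3 peaks had a median of 7565 bp.

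In the 5606 regions with 1 peak of each mark, the marks were close to concentric. The distance between the peak centres had a median of 246 bp and a 90th percentile of 748 bp. The H3K27me3 centre lay to the right of the H3K4me3 centre in 49.1% of them, close to an even split. H3K27me3 was the wider peak in 44.4%. Widths of the partners rose together: across 4 equal classes of H3K27me3 width, with medians of 733, 1279, 2131 and 3574 bp, the H3K4me3 medians were 1491, 1680, 1903 and 2429 bp. Pearson's r of the log widths was 0.465 over these pairs, which share 2 libraries and were selected for overlapping, so it is a description only.

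Around shared peaks of either mark, H3K4me3 coverage was the higher at 500 bp and H3K27me3 coverage the higher at 2 kb. Near the centre, coverage by the mark that was centred on mostly restates the width of its own peaks. The other mark can lie off centre, so the marks are not measured alike there. Around shared H3K27me3 peaks, coverage by H3K27me3 and H3K4me3 was 75.6% and 78.9% at 500 bp, 48.9% and 49.1% at 1 kb, and 23.6% and 17.7% at 2 kb. At the centre of shared H3K4me3 peaks 86.3% were covered by H3K27me3. At 500 bp on either side of them coverage was 77.2% for H3K27me3 and 95.5% for H3K4me3. At 1 kb it was 55.1% and 47.6%, and at 2 kb it was 25.3% and 11.4%. Around H3K27me3 peaks without H3K4me3, H3K4me3 coverage was 0% at the centre by definition, 7.81% at 1 kb, 13.9% at 2 kb and 10.4% at 5 kb. Around H3K4me3 peaks without H3K27me3, H3K27me3 coverage was 0.165% at 1 kb and 0.952% at 5 kb. Single-mark H3K27me3 peaks thus had the other mark nearby far more often than single-mark H3K4me3 peaks did.

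**Figure D3:**
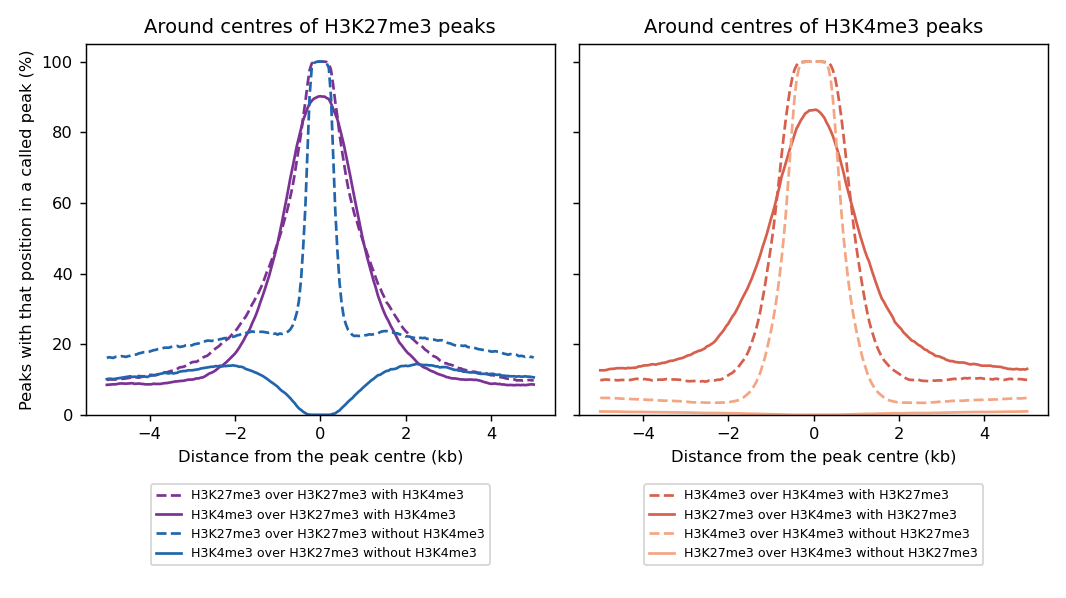
Share of P12 peaks for which a position at the given distance in kb from the peak centre lies in a called peak, centred on H3K27me3 peaks (left) and on H3K4me3 peaks (right), with dashed lines for the mark that was centred on and solid lines for the other mark. Around shared H3K4me3 peaks the H3K27me3 line lies above the H3K4me3 line at 2 kb (25.3% and 11.4%).

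The distances between the marks showed the same contrast. H3K27me3 peaks without H3K4me3 had a median edge-to-edge gap of 4724 bp to the nearest H3K4me3 peak (order-statistic 95% interval 4308 to 5077 bp). H3K4me3 peaks without H3K27me3 had a median gap of 103818 bp to the nearest H3K27me3 peak (101667 to 106083 bp). Within 1 kb of the other mark lay 23.1% of the single-mark H3K27me3 peaks and 0.942% of the single-mark H3K4me3 peaks. Within 10 kb the shares were 65.7% and 9.17%. At distances over 100 kb there were 59 single-mark H3K27me3 peaks (1.23%) and 18627 single-mark H3K4me3 peaks (50.9%). The H3K4me3 list holds more peaks, which shortens any distance measured to it, and the contrast was not adjusted for this. The 11 H3K4me3 peaks on the Y chromosome have no distance, since the H3K27me3 list has no peak there.

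**Figure D4:**
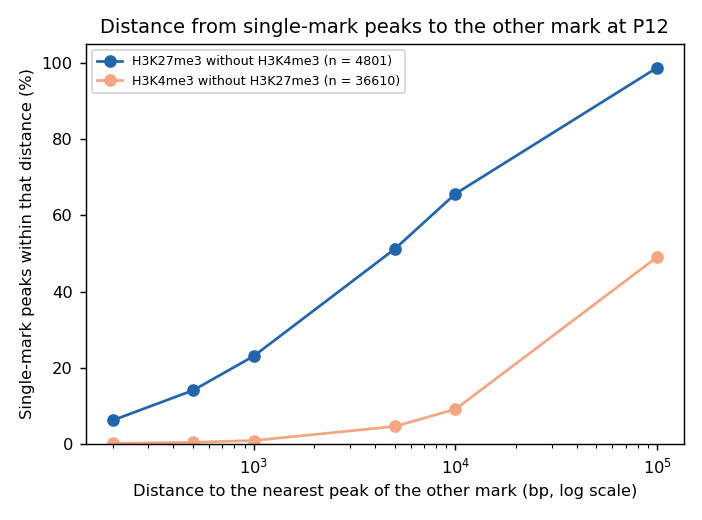
Cumulative share of single-mark P12 peaks within a given edge-to-edge distance of the nearest peak of the other mark, on a log axis in bp. At 10 kb the line for H3K27me3 stands at 65.7% and the line for H3K4me3 at 9.17%.

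Single-mark H3K27me3 peaks were of several kinds by their surroundings. Of the 4801, 1300 (27.1%) lay within 1 kb of an H3K27me3 peak that did carry H3K4me3, and 2521 (52.5%) lay within 10 kb of one. A further 657 (13.7%) had H3K4me3 but no such shared H3K27me3 peak within 10 kb. Another 780 (16.2%) had, within 10 kb, no H3K4me3 and no shared peak but at least 1 further single-mark H3K27me3 peak. The remaining 843 (17.6%) had no other peak of either mark within 10 kb. For H3K4me3 peaks without H3K27me3, 20942 of 36621 (57.2%) had no other peak of either mark within 10 kb. The median width of single-mark H3K27me3 peaks differed little with distance from H3K4me3: 741 bp within 1 kb, 786 bp from 1 to 10 kb and 712 bp beyond 10 kb.

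Along the autosomes, H3K27me3 peaks without H3K4me3 had the highest ratio of variance to mean of the 4 classes, in 1 Mb bins and without merging. Over 2482 bins of 1 Mb the ratio of variance to mean, which is near 1 for points scattered independently at an even rate, was 13.8 for H3K27me3 (mean 5.20 peaks per bin) and 10.5 for H3K4me3 (mean 17.3). With peaks of a mark within 1 kb merged first the order turned round, at 8.86 for H3K27me3 and 9.80 for H3K4me3. Values for the 4 classes are given for unmerged peaks and 1 Mb bins only, so how split peaks bear on their order is not known. Between the H3K27me3 classes the ratio was 5.84 with H3K4me3 (mean 3.27) and 13.5 without it (mean 1.93). Among H3K4me3 peaks it was 5.78 with H3K27me3 and 8.08 without it, but this ratio grows with the mean, which was 3.0 and 14.3. No H3K27me3 peak fell in 28.4% of the bins, and no H3K4me3 peak in 3.67%. The 124 fullest bins held 25.6% of H3K27me3 peaks with H3K4me3 and 47.1% of those without, each class with its own fullest bins, and 54 of the 124 were the same bins.

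Rank correlation over bins describes how far the classes followed each other. Spearman's rho was 0.690 between H3K27me3 peaks with and without H3K4me3, 0.663 between H3K27me3 peaks with H3K4me3 and H3K4me3 peaks without H3K27me3, and 0.472 between the single-mark peaks of both marks. The bins share their length, their mappable sequence and the same libraries, and no p was computed. In the 124 bins with the most single-mark H3K27me3 peaks, 39.3% of H3K27me3 peaks carried H3K4me3 (1458 shared, 2254 single-mark), against 72.5% in all other bins; since the bins were ranked by the single-mark peaks, that order is built in.

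Peaks of a class also neighboured each other closely. Another peak of the same class lay within 10 kb for 48.7% of H3K27me3 peaks with H3K4me3 (47.6% to 49.8%) and for 53.4% of those without (52.0% to 54.8%). For H3K4me3 the shares were 35.4% with H3K27me3 (34.3% to 36.5%) and 37.6% without (37.1% to 38.1%). Such shares rise with the number of peaks in a class and were not adjusted for it. The 4 classes held 8126, 4782, 7450 and 35480 autosomal peaks, in the order given. Many neighbours within 10 kb were very close: 32.7% of shared and 25.2% of single-mark H3K27me3 peaks had one within 1 kb. With peaks of a mark within 1 kb merged first, the shares within 10 kb were 23.3% and 33.2% for the H3K27me3 classes. Runs of at least 5 peaks no more than 10 kb apart held 6.46% of H3K27me3 peaks with H3K4me3 and 11.6% of those without, and 7.17% of H3K4me3 peaks with H3K27me3 and 3.01% of those without.

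Reading each autosome from low to high coordinates, the class of an H3K27me3 peak tended to repeat. After a peak with H3K4me3 the next H3K27me3 peak also had it in 71.6% of 8111 cases, and after a peak without it the next had it in 48.2% of 4778 cases. For neighbours up to 1 kb apart these shares were 67.8% and 49.9%, from 1 to 10 kb 57.8% and 37.8%, and from 10 to 100 kb 69.3% and 43.8%. Beyond 100 kb they were 81.4% and 67.4%. The peaks involved changed with the gap too: 77.7% of peaks in pairs over 100 kb apart carried H3K4me3, against 47.9% of those 1 to 10 kb apart. That share was 61.1% up to 1 kb, 58.9% from 10 to 100 kb and 62.9% over all pairs. Close neighbours can also share a class because they touch the same H3K4me3 peak, as in the 1005 regions with several H3K27me3 peaks on 1 H3K4me3 peak. Such pairs were not set apart. A peak beside a long gap can still have close neighbours on its other side.

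Summed over the autosomes, the end away from the centromere held more than an even share of each class, and most of all of single-mark H3K27me3 peaks. Mouse autosomes are telocentric and numbered from the centromeric end. The last of 10 equal parts of the autosomal spans held 16.7% of H3K27me3 peaks with H3K4me3 and 26.4% of those without. For H3K4me3 it held 16.7% of peaks with H3K27me3 and 12.6% of those without. Of the H3K27me3 peaks in that part 51.9% carried H3K4me3 (1360 of 2621), against 65.8% elsewhere on the autosomes (6766 of 10287). This share was lower in the last part on 13 of 19 autosomes, so the order was not general. By autosome the last part held 5.98% to 36.9% of the H3K27me3 peaks with H3K4me3 and 3.52% to 54.2% of those without, so some autosomes had less than an even 10% there. Per Mb, autosomes varied 2.47-fold in H3K27me3 peaks with H3K4me3 (2.24 on chromosome 3 to 5.55 on chromosome 11) and 3.72-fold in those without (0.901 on chromosome 3 to 3.35 on chromosome 8).

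**Figure D5:**
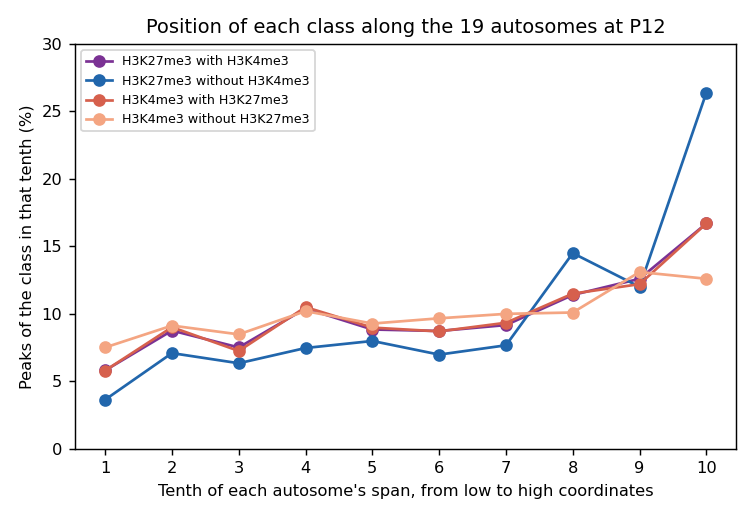
Share of each P12 peak class in 10 equal parts of the autosomal spans, from low to high coordinates, summed over the 19 autosomes. The last part holds 26.4% of H3K27me3 peaks without H3K4me3, above the other 3 classes; the lines of shared H3K27me3 and shared H3K4me3 peaks nearly coincide (16.7% each).

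The longest domains carried both marks. The 5 widest H3K27me3 peaks all overlapped several H3K4me3 peaks and held EED at P17. The widest, on chromosome 6 at 52149265 to 52192271 (43007 bp), held 10 H3K4me3 peaks over 22566 bp and 25 EED peaks. The next, on chromosome 5 at 106876163 to 106901465 (25303 bp), held 5 H3K4me3 peaks and 8 EED peaks. On chromosome 8 at 12380748 to 12403659 (22912 bp), 3 H3K4me3 peaks and 15 EED peaks lay in 1 H3K27me3 peak. The fourth, on chromosome 17 at 86006522 to 86028592, was 22071 bp wide and held 5 H3K4me3 and 10 EED peaks. The fifth, on chromosome 9 at 62981240 to 63001345, was 20106 bp wide and held 5 of each. These 5 were picked by width, and wide peaks overlap more, so they show the arrangement rather than a rate. The P17 H3K27me3 list covered 4 of them in full and had no peak over the chromosome 6 domain, for which the cause was not tested.

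Among the 5 widest H3K4me3 peaks, 4 carried H3K27me3, against 36.4% of the widest width class and 17.0% of all H3K4me3 peaks. These too were picked by width and give no rate. The widest, on chromosome 5 at 143575152 to 143585959 (10808 bp), held 4 H3K27me3 peaks over 5222 bp and no EED peak. That on chromosome 5 at 123584468 to 123594818 (10351 bp) held 2 H3K27me3 peaks over 5209 bp and 1 EED peak. On chromosome 2 at 104965261 to 104975312 (10052 bp), 4 H3K27me3 peaks covered 9653 bp and 6 EED peaks were present. The peak on chromosome 11 at 74978042 to 74988082 (10041 bp) held 1 H3K27me3 peak over 8983 bp and no EED. The exception, on chromosome 5 at 109978530 to 109988810 (10281 bp), had H3K27me3 at neither P12 nor P17.

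The longest runs of each class mostly lay among peaks of other classes too. The longest run of H3K4me3 peaks with H3K27me3 lay on chromosome 6 at 52100338 to 52211738 (24 peaks in 111401 bp). The next, on chromosome 2 at 74486276 to 74602497, had 22 peaks in 116222 bp. Another lay on chromosome 11 at 96112016 to 96216714 (19 peaks in 104699 bp). H3K27me3 covered 100419, 95565 and 89452 bp of these 3 stretches and H3K4me3 covered 47693, 44054 and 41532 bp, and they held 43, 49 and 51 EED peaks. The longest runs of shared H3K27me3 peaks included a stretch of 53977 bp on chromosome 18 with 16 such peaks and 37 EED peaks. Others were the chromosome 11 stretch, here 96111450 to 96228996 with 15, and chromosome 15 at 102738994 to 102873359 with 15 and 34 EED peaks. Both of these also held 13 H3K27me3 peaks without H3K4me3, and the chromosome 18 stretch held 1.

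The longest runs of single-mark H3K27me3 peaks held 0 EED peaks, in a class with EED on 1.23% of its peaks (59 of 4801). At such a share a run of this length can easily hold none. These runs lay on chromosome 8 at 123504638 to 123557258 (15 such peaks in 52621 bp), chromosome 4 at 153844558 to 153893004 (14 in 48447 bp) and chromosome 8 at 123372187 to 123427417 (13 in 55231 bp). In them H3K27me3 covered 15526, 14449 and 21044 bp, a smaller part of the stretch than in the shared runs. The first also held 1 H3K27me3 peak with H3K4me3 and 1 H3K4me3 peak, the second none of either, and the last 5 and 4. The P17 H3K27me3 list covered 29388, 25569 and 46158 bp of them. The longest runs of H3K4me3 peaks without H3K27me3 lay on chromosome 13 at 23585603 to 23678979 (16 peaks), chromosome 7 at 148614772 to 148669037 (11) and chromosome 9 at 107435258 to 107516030 (11). EED was at 0 peaks in these 3 as well, in a class with EED on 0.186% of its peaks (68 of 36621). The same 3 runs were overlapped by 10, 6 and 2 P17 H3K27me3 peaks.

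The widest H3K27me3 peaks without H3K4me3 were short beside the shared ones. They measured 5584 bp on chromosome 8 at 123070179 to 123075762, 4389 bp on chromosome 4 at 134727719 to 134732107 and 4196 bp on chromosome 2 at 31728578 to 31732773. None held an EED peak, which lay on 1 of 15 single-mark peaks in the widest H3K27me3 class. The single-mark H3K27me3 peak farthest from H3K4me3, on chromosome 7 at 101190916 to 101191716 (801 bp), stood 476913 bp from the nearest H3K4me3 peak and had no P17 H3K27me3 peak over it.

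EED at P17, which the choice of members did not use, was found mainly on shared peaks. It overlapped 6.11% of all P12 H3K27me3 peaks and 2.21% of all P12 H3K4me3 peaks. Among H3K27me3 peaks the share was 8.96% with H3K4me3 (737 of 8227; 8.36% to 9.59%) and 1.23% without (59 of 4801; 0.954% to 1.58%). Among H3K4me3 peaks it was 12% with H3K27me3 (906 of 7521; 11.3% to 12.8%) and 0.186% without (68 of 36621; 0.147% to 0.235%). Both orders held on 19 of 19 autosomes, with shares of 3.51% to 19.4% against 0% to 5.67% in the H3K27me3 list and 4.46% to 23.8% against 0% to 0.438% in the H3K4me3 list.

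Width moved with the EED share in the H3K27me3 list. In the widest class EED lay on 34.3% of shared peaks (442 of 1288) and on 1 of 15 single-mark peaks. In the 8 narrower classes below 2308 bp the shares ran from 0.730% to 4.85% for shared peaks and from 0.574% to 5.29% for single-mark peaks, so these ranges overlapped. The shared class was higher in 9 of 10 width classes. Without the widest class the shares were 4.25% (3.80% to 4.75%) with H3K4me3 and 1.21% (0.939% to 1.56%) without. In the H3K4me3 list the shared class was higher in 10 of 10 width classes, from 7.08% to 22.8% against 0.0237% to 0.606%, so there the ranges did not overlap.

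The EED share of single-mark H3K27me3 peaks also differed by distance from H3K4me3. It was 3.16% within 1 kb (35 of 1109; 2.28% to 4.36%), 1.08% from 1 to 10 kb (22 of 2046; 0.711% to 1.62%) and 0.122% beyond 10 kb (2 of 1646; 0.0333% to 0.442%). Counted by bases, 58.4% of the 2701 EED peak midpoints fell where both P12 marks lay (125 per Mb) and 19.1% where H3K27me3 lay alone (57.2 per Mb). H3K4me3 alone held 4.85% (2.11 per Mb), and 17.7% fell outside both marks (0.191 per Mb). Bases under 1 mark alone include the parts of shared peaks that reach beyond the other mark. They are therefore not the bases of the single-mark classes, and EED overlapped only 59 of the 4801 single-mark H3K27me3 peaks. How the midpoints under 1 mark alone divide between shared and single-mark peaks was not counted. EED was profiled only at P17, so stage and factor differ together in this readout. Since peak numbers were missing from the EED list, an absent EED peak can also be one removed before deposit.

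Both P17 histone-mark lists overlapped a larger share of shared than of single-mark P12 H3K27me3 peaks in each of the 10 width classes. A P17 H3K27me3 peak overlapped 95.3% of all P12 H3K27me3 peaks. In the narrowest class it overlapped 96.1% of peaks with H3K4me3 (395 of 411) and 73.5% of those without (659 of 897). In the classes from 912 to 3315 bp the shares were 99.6% to 99.9% with H3K4me3 and 96.3% to 98.3% without. In the widest class they were 99.3% (1279 of 1288) and 86.7% (13 of 15). By distance, 97.4% of single-mark peaks within 1 kb of H3K4me3 had a P17 H3K27me3 peak, 89.6% of those from 1 to 10 kb and 81.0% of those beyond. P17 H3K4me3 overlapped 66.3% of all P12 H3K27me3 peaks. Its shares were 96.4% with H3K4me3 and 8.70% without in the narrowest class, and 99.7% and 33.3% in the widest. That order is largely built in, since the classes were set by H3K4me3 at P12. P17 H3K4me3 overlapped 99.2% of P12 H3K4me3 peaks with H3K27me3 and 94.9% of those without. In the narrowest H3K4me3 class these shares were 88.6% (179 of 202) and 79.9% (3373 of 4219), and in the widest both were 100%. Among P12 H3K27me3 peaks without H3K4me3, the share with P17 H3K4me3 was 23.1% within 1 kb of a P12 H3K4me3 peak, 7.87% from 1 to 10 kb and 4.37% beyond 10 kb. The P17 lists pool 2 replicates and hold wider peaks, and their part in these shares was not tested.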

How the data were processed

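Peak lists of P12 H3K27me3 and P12 H3K4me3 (1 library each) were analysed, with the P17 H3K27me3, H3K4me3 and EED lists as further readouts. Per the labels, P17 histone-mark lists pool 2 replicates. Groups were taken from sample titles, since the antibody field of P17 H3K4me3 names H3K27me3. The deposited lists hold peak positions in bp, with no score. The peak names show that the authors called them with MACS, and the names of the deposited lists give a false discovery rate of 5%. Reads were aligned to mm9, and Bowtie, SAMtools and HTSeq were used, per the submitters' processing notes; their versions and the caller settings were not given in the sources used here. Input libraries and the gene-body counts were not used here: gene symbols could not be placed on the peaks without an mm9 annotation.

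Overlap was at least 1 bp. Gaps run edge to edge. The span of a chromosome runs between the outermost peaks of the 5 lists. Runs join peaks of a class up to 10 kb apart, and bins of 1 Mb count peak midpoints. Regions named in the text follow a rule: the 5 widest peaks of each list, the 3 widest peaks and longest runs of each class, the 3 single-mark peaks farthest from the other mark, and the 3 joined regions with the most peaks; ties go to the lower position, and the text gives part of them. The position along autosomes, the P17 readouts by distance class and the gaps between neighbouring peaks were added after values had been seen. The members and rules were chosen with earlier results of these data known. Interval functions (Python 3.11.15, numpy 2.4.6, pandas 2.3.3, scipy 1.17.1, networkx 3.6.1) were tested on simulated data. Alternatives are given in the closing section.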

Additional observations from a re-analysis of the deposited data

How the results depend on the processing

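Shared peaks stayed wider than single-mark peaks of the same mark when 50% cover was required, after merging and on autosomes only. Merging turned round the more frequent nesting and the order of the marks in variance to mean ratio. Under stricter or looser overlap (50% of the peak, 50% of the shorter peak, midpoint, gap of up to 1000 bp), the H3K27me3 share was 55.5%, 59.0%, 56.9% and 71.7%, and the H3K4me3 share 14.0%, 16.6%, 14.7% and 17.8%. With peaks of at least 1000 bp only, the shares were 81.6% and 15.5%, and the median gap of H3K4me3 peaks without H3K27me3 was 135666 bp. With peaks of a mark within 1000 bp merged, the H3K27me3 share was 69.6%. Requiring 50% cover gave median widths of 1508 bp (with) and 798 bp (without) for H3K27me3 and 1418 bp for H3K4me3 without H3K27me3. Merging gave 2082 and 764 bp for H3K27me3 and 2020 and 1424 bp for H3K4me3. H3K27me3 wholly inside H3K4me3 was 41.2% with 100 bp of tolerance and 29.6% after merging, and the reverse 37.7% and 38.2%. Midpoint distance gave a median of 6106 bp from single-mark H3K27me3 peaks, and autosomes only gave 98506 bp from single-mark H3K4me3 peaks. The neighbour shares with windows of 5 and 50 kb and after merging were 42.3%, 68.5% and 23.3% for H3K27me3 with H3K4me3, 42.8%, 74.5% and 33.2% for H3K27me3 without, and 20.9%, 83.6% and 34.7% for H3K4me3 without, so H3K4me3 without was the lowest of the 3 with 5 kb and the highest with 50 kb and after merging. These neighbour shares rise with the number of peaks in a class, which was largest for H3K4me3 without H3K27me3, and were not adjusted for it. The variance to mean ratio in bins of 250 kb and 5 Mb and after merging was 6.50, 32.3 and 8.86 for H3K27me3, and 4.04, 28.0 and 9.80 for H3K4me3. Without the widest class, the EED share was 4.25% on H3K27me3 with H3K4me3 and 9.13% on H3K4me3 with H3K27me3, an alternative added after the data had been seen. Of 57 alternatives, 15 stayed inside the interval of the main value and 42 moved out of it. Of those 15, 9 came from the autosomes only setting, which leaves out few peaks. No paired analysis was possible because each mark has 1 library at P12.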

Other observations

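The X chromosome differed from the autosomes in both directions. Of its 120 H3K27me3 peaks 84.2% carried H3K4me3 (101 peaks; 76.6% to 89.6%), above the autosomal range of 50.4% to 75%. Of its 1201 H3K4me3 peaks 5.91% carried H3K27me3 (71 peaks; 4.71% to 7.39%), below the autosomal range of 13.0% to 21.2%. It held 0.743 H3K27me3 peaks and 7.43 H3K4me3 peaks per Mb, each below its lowest autosome (3.14 and 13.7). In male cells the X has fewer copies than an autosome, and none of these values was adjusted for this. The H3K4me3 peaks farthest from H3K27me3 lay on the X, the first at 119509967 to 119511937, with a gap of 10708103 bp.

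Short gaps between neighbouring H3K27me3 peaks were often spanned by H3K4me3. Of 2218 gaps of 1 to 250 bp, 43.1% lay wholly in H3K4me3 peaks, which covered 40.6% of the gap bases, against 58.3% of the bases of the H3K27me3 peaks themselves. In longer gaps of up to 1000 bp H3K4me3 covered 24.0% of the bases, and in gaps over 1 and up to 5 kb it covered 7.75%. For H3K4me3 the 395 gaps of 1 to 250 bp had 24.6% of their bases under H3K27me3, against 16.9% of the bases of the H3K4me3 peaks. These values set the gaps against all peaks of the list, not against the peaks that flank the gaps, and the differences were not tested.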
